A study of Mus musculus with 4 samples.

Results

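Cholesterol synthesis, uptake and efflux genes were followed in the hypothalamus of mice carrying C26 tumours, a mouse colon adenocarcinoma line used to model cancer cachexia. The list named 34 genes, of which 32 of the 19938 genes on the array were measured. Acat2 and Nr1h2 were not analysed here. A gene counted as measured when a probe set carried its symbol alone, and where several did, the brightest on average was used. That average decided only which probe set stood for a gene. The list itself was drawn up with earlier results of these data known, so its counts beside those of all genes are descriptions. Of the 32 genes, 31 had a mean at or above the 40th percentile of all genes, 6.59 log2. Nr1h3 lay just below it.

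All mice were male CDF1, a BALB/c by DBA/2 cross, aged 10 to 11 weeks, and were killed on day 20 after a single injection of 0.2 ml buffered saline into the flank. The control array held RNA pooled from 4 sham-injected mice. Tumour-bearing arrays are named by the C26 cells injected: 0.5M held RNA pooled from 4 mice that received 500000, 1M from 3 mice that received 1000000, and 2M the RNA of 1 mouse that received 2000000. The title of the 2M sample says pooled, against its source label. Each group was 1 array, so a difference between 2 arrays has no replicate check, and pooled RNA hides the spread between animals. The values are log2 expression after RMA. Hypothalamic markers were present, with Pmch at 11.40 log2 and Avp at 9.92 log2 in the control array. Of 9 such markers, 6 were above control in all 3 tumour-bearing arrays (33.4% of all genes past the filter) and 1, Pomc, was below (27.3%). At an unadjusted limma p under 0.05, 6 were higher (6.19% of all genes). Correlations between arrays ran from 0.984 to 0.994. The 0.5M array stood apart in Gh, which was 4.68 log2 above control there and 0.78 and 0.72 above at 1M and 2M, and in Prl, but not in the other 4 of 6 pituitary hormone genes. The part of these shifts and of neighbouring tissue in the values below was not tested.

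Cholesterol is built from acetyl-CoA through mevalonate, the isoprenoid farnesyl diphosphate, squalene and lanosterol. The brain makes its own supply, largely in glia, because lipoprotein cholesterol of the blood hardly crosses the blood-brain barrier. When sterols run low, SCAP escorts the SREBP transcription factors out of the endoplasmic reticulum and the genes of synthesis are switched on, while INSIG proteins hold them back. When sterols are plentiful, liver X receptors (LXR) switch on genes of efflux.

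Upstream sequence was set beside the expression values because many genes of synthesis are known targets of SREBP, which works together with the CCAAT-binding factor NF-Y. RefSeq windows of assembly GRCm38.p6 were found for 26 of the 32 genes, and the 250 bases before each start were searched on both strands. The letters TCACNCCAC, a strict form of the sterol regulatory element, were found upstream of 1 gene, Hmgcs1, and in 1.05% of the 32851 mouse windows of this length. CCAAT was found upstream of 22 of the 26 genes, against 39.8% of the 9566 genes past the filter that had a window. Counted by window, it was in 23 of 37 windows of the members and in 33.8% of all windows. The GC box letters GGGCGG were found for 23 of the 26 (65.2% of genes past the filter) and the E-box CACGTG for 6 (10.1%). A strict form of the LXR element, a direct repeat, was found for 0 members and in 5 of all 32851 windows. The letters of none of these motifs contain those of another. A match describes letters, not binding.

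Sequences are shown for Hmgcs1, chosen because it alone holds the sterol regulatory element letters, and for Hsd17b7, Tmem97 and Mvd, chosen after the values were seen as the pair farthest below control and a synthesis gene with values on both sides of it. Capitals mark TCACNCCAC and CCAAT, or their reverse complements, and each run ends at the base before the RefSeq start.
Hmgcs1 (chr13:119690101-119690350, plus strand): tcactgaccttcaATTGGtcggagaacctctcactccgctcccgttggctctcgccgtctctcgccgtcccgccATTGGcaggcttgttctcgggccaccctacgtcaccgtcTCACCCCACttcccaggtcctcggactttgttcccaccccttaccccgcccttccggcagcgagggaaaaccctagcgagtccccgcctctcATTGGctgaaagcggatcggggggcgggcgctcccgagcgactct
Hsd17b7 (chr1:169969206-169969455, minus strand): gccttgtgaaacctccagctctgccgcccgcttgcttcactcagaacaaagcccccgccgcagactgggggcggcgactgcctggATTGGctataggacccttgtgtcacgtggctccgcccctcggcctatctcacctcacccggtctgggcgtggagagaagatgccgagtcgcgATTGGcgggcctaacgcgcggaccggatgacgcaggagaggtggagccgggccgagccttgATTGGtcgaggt
Tmem97 (chr11:78550736-78550985, minus strand): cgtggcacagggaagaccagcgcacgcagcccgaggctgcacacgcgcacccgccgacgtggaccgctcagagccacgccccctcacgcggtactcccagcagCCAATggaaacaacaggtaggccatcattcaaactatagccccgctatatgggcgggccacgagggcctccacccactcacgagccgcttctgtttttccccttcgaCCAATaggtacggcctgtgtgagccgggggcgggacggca
Mvd (chr8:122443423-122443672, minus strand): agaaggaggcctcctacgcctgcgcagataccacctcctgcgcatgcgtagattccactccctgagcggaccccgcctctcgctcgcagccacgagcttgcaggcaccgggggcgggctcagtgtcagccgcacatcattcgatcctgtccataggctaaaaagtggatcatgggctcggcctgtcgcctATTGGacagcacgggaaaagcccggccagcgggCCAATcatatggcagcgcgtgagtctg
Counting from the RefSeq start, the sterol regulatory element letters of Hmgcs1 began at -137, between CCAAT matches at -176 and -45, and a further match lay at -237. Hsd17b7 held 3 CCAAT matches, Tmem97 held 2 and Mvd held 2. CCAAT letters thus stood upstream of the genes far below control and of the gene on both sides of it.

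**Figure D1:**
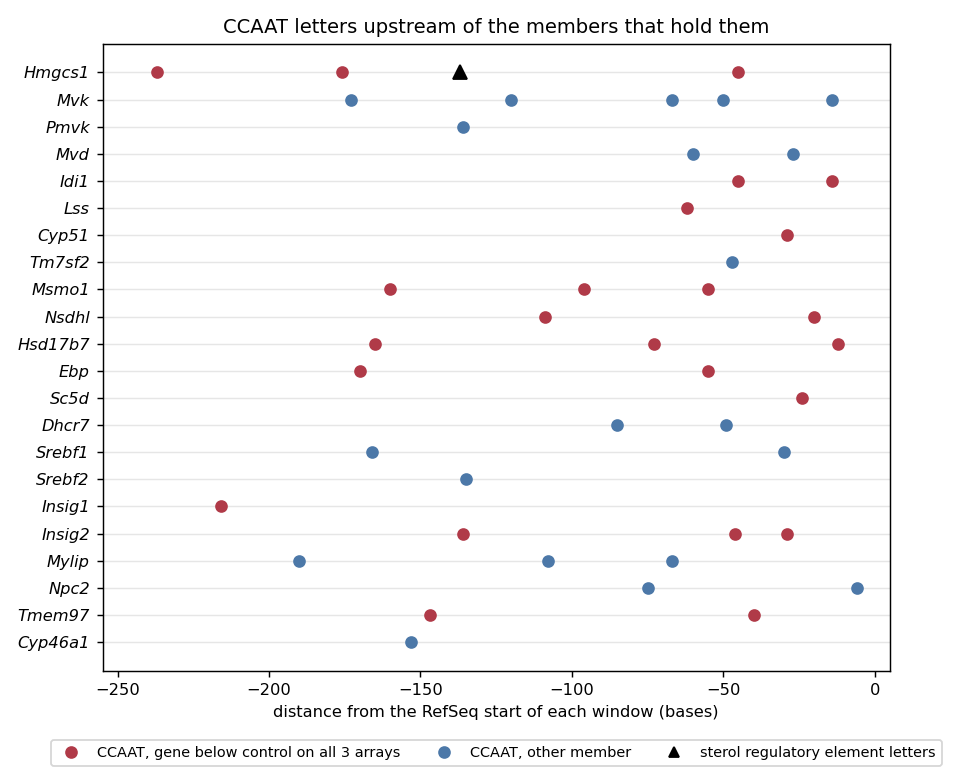
Position of CCAAT letters (either strand) before the RefSeq start, in bases, for the 22 members that hold them, in red where the gene was below control on all 3 tumour-bearing arrays and in blue otherwise; where a gene has several windows, each is measured from its own start. The triangle is the single match to the sterol regulatory element letters, in Hmgcs1, at -137 bases, and red and blue genes both hold CCAAT.

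The genes of synthesis stood lower in the tumour-bearing arrays, and most of the others did not. Of 17 synthesis genes, 10 lay below control throughout the 3 tumour-bearing arrays and 0 lay above it throughout. Of the 15 genes of regulation, transport and efflux, 5 were below and 4 above. Over all 32 genes, 15 were below control in all 3 arrays, against 27.3% of the 11963 genes past the filter. Above it in all 3 arrays were 4, against 33.4%. Without the 2M array 10 were above control, but this asks for agreement of fewer arrays, and its share of all genes was not counted. The 3 differences share the control array, so agreement between them is read only beside those shares. The median difference of the synthesis genes was -0.19 log2 at 0.5M, -0.20 at 1M and -0.33 at 2M, while that of all genes past the filter was 0.01, 0.04 and 0.01. For the remaining roles pooled the medians were 0.01, 0.07 and -0.04 log2.

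A difference of at least 0.25 log2 (1.19-fold) below control was found for 5 of the 32 genes at 0.5M, where 5.21% of all genes past the filter lay as low. At 1M it was found for 9 of 32 (10.8% of all genes), and at 2M for 14 of 32 (9.03%). Above control by as much stood 0 genes at 0.5M (5.81%), 2 at 1M, Mvd and Srebf1 (14.9%), and 0 at 2M (9.14%). With a size of 0.5 log2 (1.41-fold), 1, 3 and 6 genes were that far below control, against 0.293%, 2.14% and 1.25% of all genes, and 0 were that far above, against 0.56%, 1.63% and 1.24%. The 2M array, which holds a single animal, thus carried the most low values.

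**Figure D2:**
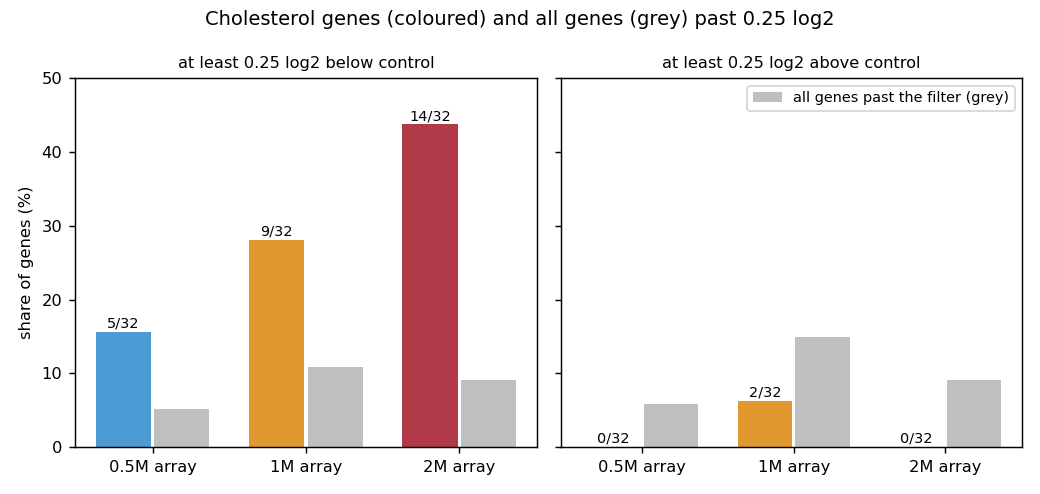
Share of genes (%) at least 0.25 log2 below (left) or above (right) the control array, for the 32 cholesterol genes in colour, with their number on the bar, and for the 11963 genes past the filter in grey. Below control stood 5, 9 and 14 of 32 genes at 0.5M, 1M and 2M, and the coloured bars exceed the grey ones on the left and fall short of them on the right.

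In limma (two-sided, Benjamini-Hochberg adjustment over all genes), 0 of the 31 tested members passed when the 3 tumour-bearing arrays were set against the control, where 6 genes of the whole table (0.0502%) did. The lowest adjusted p among the members was 0.319, for Tmem97. At an unadjusted p under 0.05, 10 members were lower, against 4.61% of all genes, and 0 were higher, against 6.19%. The 10 were Cyp51, Ebp, Hsd17b7, Idi1, Insig1, Insig2, Lss, Msmo1, Sc5d and Tmem97. Without the 2M array 3 members were lower. That fit left 1 residual degree of freedom, and fewer of all genes were lower in it too. The 3 are therefore not to be read beside the 4.61%. With 2 residual degrees of freedom, the spread in this fit is that between cell numbers and pool sizes. Averaged over the arrays, 11 members were at least 0.25 log2 below control, against 6.6% of all genes, and 1, Srebf1, was as far above, against 7.42%. In each of the 3 arrays, 3 members were that far below, namely Hsd17b7, Insig2 and Tmem97 (2.27% of all genes), and 0 were that far above (3.03%).

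**Figure D3:**
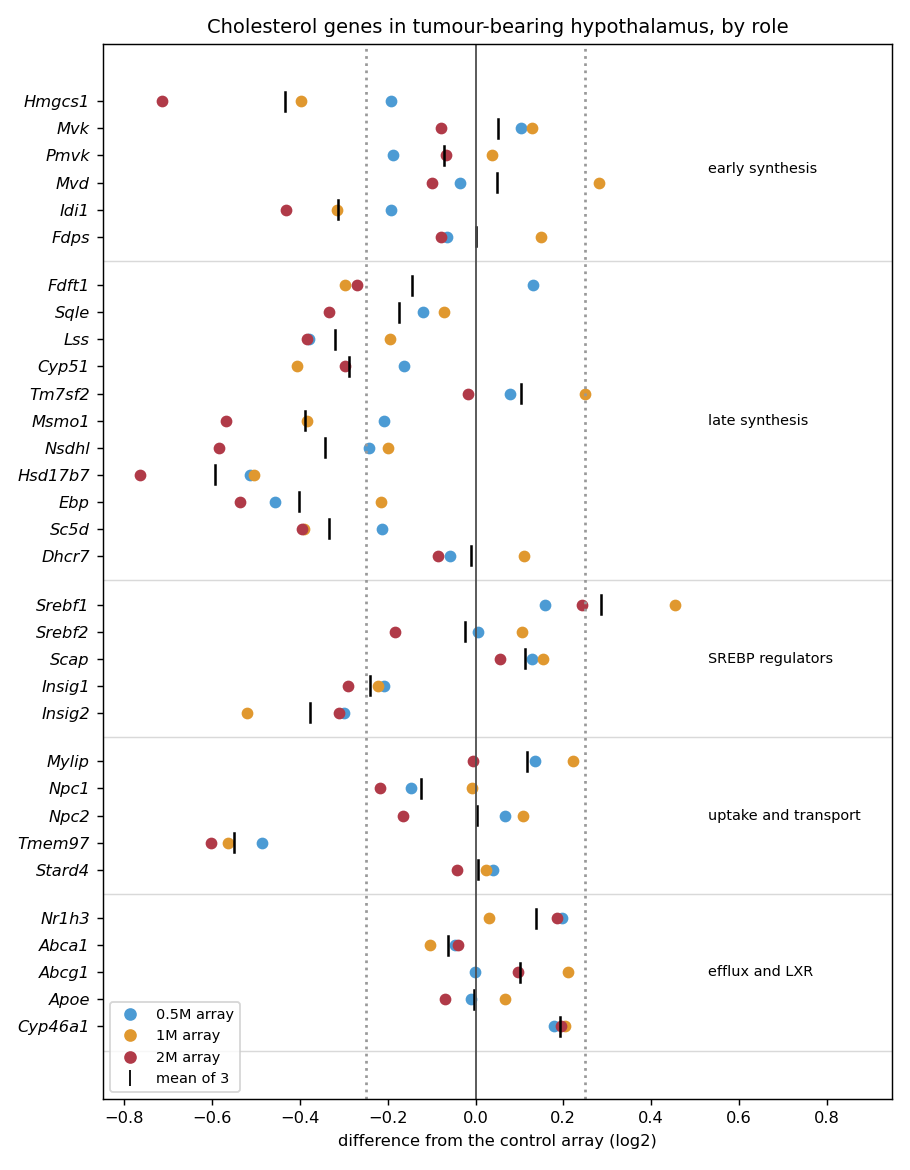
Difference of each tumour-bearing array from the control array (log2) for the 32 measured genes, grouped by role; coloured points are the 3 arrays, the black bar is their mean and dotted lines mark 0.25 log2. Late synthesis genes lie mostly left of 0, Hsd17b7 farthest at a mean of -0.59, while the genes of efflux lie near 0 or right of it.

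The early steps, which lead from acetyl-CoA to farnesyl diphosphate, divided into 2 low genes and 4 with values on both sides of control. Hmgcs1, which makes HMG-CoA and so feeds the mevalonate pathway, measured 10.48 log2 in the control array, 10.29 at 0.5M, 10.08 at 1M and 9.76 at 2M. It was lower with every step in cell number, and the 2M value was 61.0% of control. The mean difference was -0.43 ± 0.26 log2 (SD over the 3 tumour-bearing arrays, here and below, which holds no error of the control array). Idi1, the isomerase that interconverts the isoprenoid building blocks, measured 8.83, 8.63, 8.51 and 8.39 log2 in the same order. It too stepped down, by a mean of -0.31 ± 0.12 log2, and its second probe set gave -0.29, -0.45 and -0.54.

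The kinases and the decarboxylase between them straddled control. Mvk, mevalonate kinase, measured 8.06 log2 in the control and 8.16, 8.18 and 7.98 in the tumour-bearing arrays. Pmvk, phosphomevalonate kinase, measured 7.42 and then 7.23, 7.45 and 7.35 log2. Mvd, mevalonate diphosphate decarboxylase, measured 7.52 and then 7.48, 7.80 and 7.42 log2. The control value lay inside the range of the tumour-bearing values for each of these 3 genes. The same held for Fdps, farnesyl diphosphate synthase, at 9.45 log2 in the control and 9.39, 9.60 and 9.37 in the others. The median of the 6 early genes was -0.13, 0.08 and -0.09 log2 in ascending order of cell number, so that at 1M it was not below control.

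The late steps, from farnesyl diphosphate to cholesterol, were the lowest of the 5 roles. Their median was -0.21, -0.21 and -0.38 log2 at the 3 cell numbers, and 8 of 11 genes were below control in all 3 arrays. Fdft1, squalene synthase, which commits farnesyl units to sterols, measured 10.83 log2 in the control, 10.96 at 0.5M, 10.53 at 1M and 10.56 at 2M. It was above control at 0.5M and below it in the other arrays. Sqle, the squalene epoxidase that carries out the first oxygenation, measured 9.28, 9.16, 9.20 and 8.94 log2, so that most of its mean difference of -0.18 ± 0.14 came from 2M. Lss, which closes squalene epoxide into lanosterol, measured 8.48, 8.10, 8.28 and 8.10 log2, a mean difference of -0.32 ± 0.11.

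Lanosterol is then stripped of methyl groups, and Cyp51, Msmo1, Nsdhl and Hsd17b7, which act in this demethylation, were low together. Tm7sf2, the reductase of the lanosterol branch given below, was not, at 0.08, 0.25 and -0.02 log2 from control. Cyp51, the first demethylase, measured 8.46, 8.30, 8.05 and 8.16 log2 in the order control, 0.5M, 1M and 2M. Msmo1, the oxygenase acting at the next position, measured 9.50, 9.29, 9.12 and 8.93 log2. All tumour-bearing values lay below control for both genes, and Msmo1 was lower at every step, ending at 67.4% of control. Nsdhl, the dehydrogenase that works with Msmo1, measured 9.33, 9.09, 9.13 and 8.74 log2. Hsd17b7, the keto-reductase of the same sequence, measured 8.84, 8.33, 8.34 and 8.08 log2. It had the largest mean difference of the 32 genes, -0.59 ± 0.15 log2, and stood at 58.8% of control at 2M. Its limma adjusted p was 0.375 in the comparison of tumour-bearing arrays with control. The mean difference was -0.29 ± 0.12 log2 for Cyp51, -0.39 ± 0.18 for Msmo1 and -0.34 ± 0.21 for Nsdhl.

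In the closing steps, low genes and genes near control stood side by side. Ebp, the sterol isomerase, measured 8.76 log2 in the control and 8.31, 8.55 and 8.23 in the tumour-bearing arrays, a mean difference of -0.40 ± 0.17. Sc5d, the desaturase that follows, measured 9.58 and then 9.36, 9.19 and 9.18 log2, a mean difference of -0.33 ± 0.10. Both genes were below control in each array. Dhcr7, the reductase of the last step, measured 8.80 and then 8.74, 8.91 and 8.71 log2, within 0.11 log2 of control throughout. Tm7sf2, a sterol reductase acting on the lanosterol branch, measured 7.82 and then 7.90, 8.07 and 7.80 log2. Its mean difference was 0.10 ± 0.14 log2, whereas Lbr, a nuclear envelope protein with the same reductase activity, was -0.34, -0.31 and -0.37 log2 from control.

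**Figure D4:**
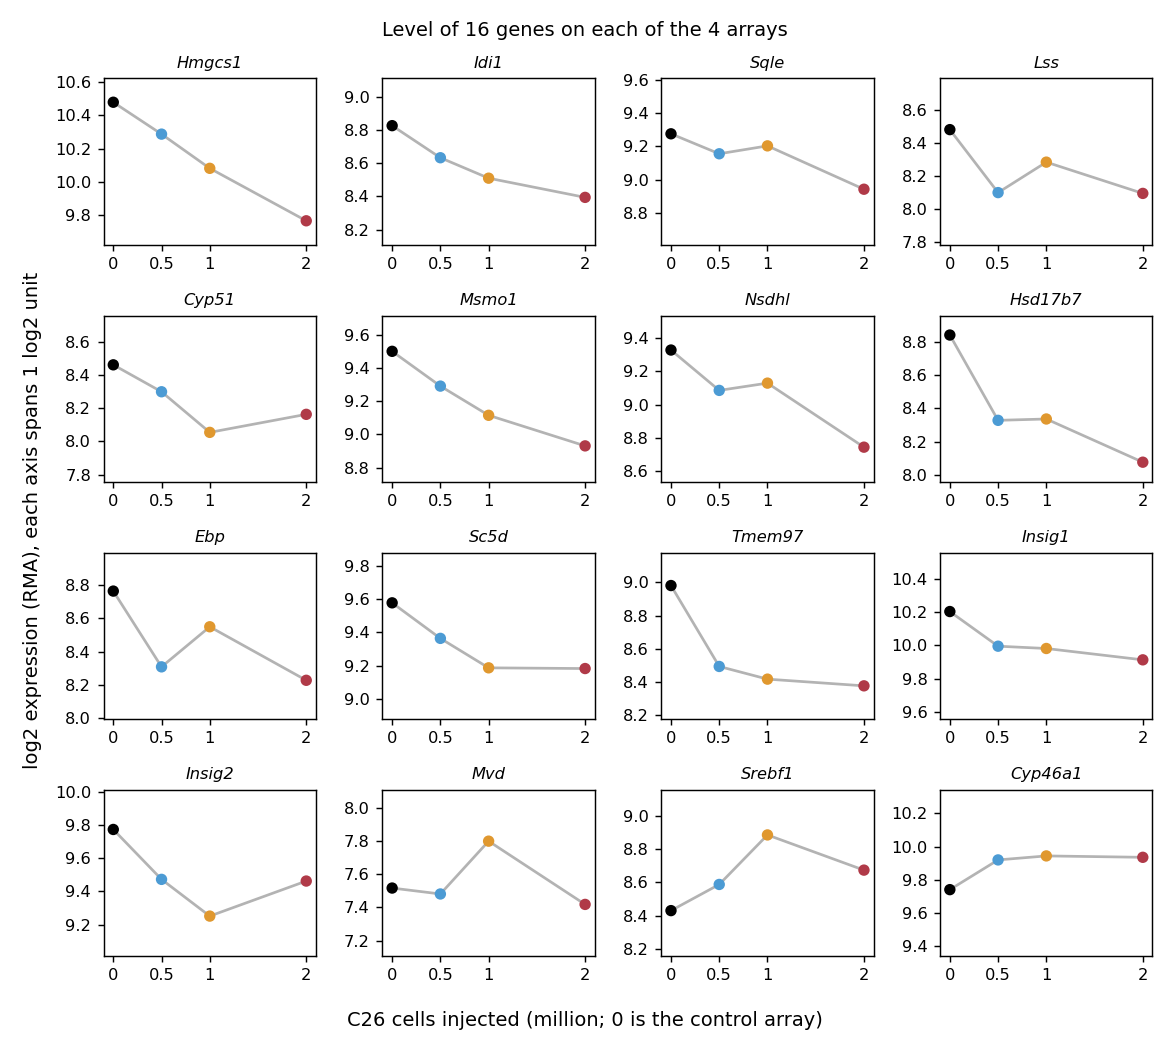
Log2 expression of 16 genes on each of the 4 arrays, against the number of C26 cells injected, on the scale of 0.5M, 1M and 2M (0 is the control array); every vertical axis spans 1 log2 unit and each point is 1 array. Hmgcs1, Idi1 and Msmo1 step down from control to 2M, Mvd peaks at 1M, and Srebf1 and Cyp46a1 lie above control on all 3 tumour-bearing arrays.

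A descent at every step from control through 0.5M and 1M to 2M was found for 6 of the 32 genes, against 4.81% of all genes past the filter. They were Hmgcs1, Idi1, Msmo1, Sc5d, Insig1 and Tmem97, and the last step of Sc5d was -0.004 log2. An ascent at every step was found for 0 members, against 5.22% of all genes. Between tumour-bearing arrays, 5 members were at least 0.25 log2 lower at 2M than at 0.5M (3.54% of all genes): Hmgcs1, Fdft1, Msmo1, Nsdhl and Hsd17b7. None, 0 of 32, was as much higher (3.72%). Between 2M and 1M the counts were 9 lower (6.89%) and 0 higher (5.04%). In the limma trend with cell number, 0 of 31 members passed, as did 0 genes of the whole table (0%), with 8 members lower (3.18% of all genes) and 0 higher (3.34%) at an unadjusted p under 0.05. The slope of Hmgcs1 was -0.36 ± 0.06 log2 for each 1000000 cells (SE, limma adjusted p = 0.334). Without the 1M array, with 1 residual degree of freedom, 58 of the 11963 genes passed. Hmgcs1 was the only member among them, with a limma adjusted p of 0.0247. The single animal of 2M has most of the weight in this slope.

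The regulators of SREBP went different ways. Srebf1, which encodes the SREBP form better known for fatty acid genes and is itself an LXR target, measured 8.43 log2 in the control, 8.59 at 0.5M, 8.89 at 1M and 8.67 at 2M. All tumour-bearing values lay above control, by a mean of 0.29 ± 0.15 log2, the highest of the 32 genes, with a limma adjusted p of 0.480. Srebf2, which encodes the form that drives cholesterol synthesis, measured 10.05, 10.06, 10.16 and 9.87 log2 and so straddled control. Scap measured 9.61, 9.73, 9.76 and 9.66 log2, slightly above control in each array.

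The genes of the INSIG brake were low, as the synthesis genes were. Insig1, itself an SREBP target, measured 10.20, 9.99, 9.98 and 9.91 log2, a mean difference of -0.24 ± 0.04. Insig2 measured 9.77, 9.47, 9.25 and 9.46 log2, a mean difference of -0.38 ± 0.12 with its lowest value at 1M. Neither passed limma, with adjusted p of 0.438 and 0.383. CCAAT letters stood upstream of Srebf1, Srebf2, Insig1 and Insig2 alike. Of the 13 members with a window that were below control in all 3 arrays, 12 held CCAAT, and of the 13 others 10 did.

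Among genes of uptake and movement inside the cell, Tmem97 stood apart. It encodes a membrane protein of the endoplasmic reticulum, also known as the sigma-2 receptor, that binds NPC1 and is an SREBP target. Its probe set measured 8.98 log2 in the control and 8.49, 8.42 and 8.38 in the tumour-bearing arrays, a mean difference of -0.55 ± 0.06. A second, dimmer probe set of the gene went the other way, at 6.91 log2 in the control and 7.14, 7.13 and 6.95 in the others, so the low value rests on 1 of 2 probe sets. Npc1, the lysosomal membrane exporter of cholesterol, measured 10.22 and then 10.07, 10.21 and 10.00 log2, and Npc2, its soluble partner, 8.60 and then 8.67, 8.71 and 8.44. Npc1 was -0.15, -0.01 and -0.22 log2 from control and Npc2 straddled it. Mylip, a ubiquitin ligase that removes lipoprotein receptors and is an LXR target, measured 7.94 and then 8.08, 8.16 and 7.94 log2. Stard4, a soluble sterol carrier, measured 7.15 and then 7.19, 7.18 and 7.11 log2. The median of the 5 genes was 0.04, 0.02 and -0.17 log2.

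Efflux genes and their receptor lay close to control. Abca1, the transporter that loads cholesterol onto apolipoproteins, measured 9.03 log2 in the control and 8.98, 8.92 and 8.99 in the tumour-bearing arrays. Abcg1, which passes sterol to lipoprotein particles, measured 9.37 and then 9.37, 9.58 and 9.47 log2. Apoe, the main apolipoprotein of the brain, measured 12.27 and then 12.26, 12.34 and 12.20 log2. None of these 3 genes reached 0.25 log2 from control in any array. Nr1h3, which encodes the LXR alpha receptor and lay below the filter, measured 6.45 and then 6.65, 6.48 and 6.63 log2. Cyp46a1, the neuronal hydroxylase that turns cholesterol into a form able to leave the brain, measured 9.74 and then 9.92, 9.94 and 9.94 log2. It was above control by 0.19 ± 0.01 log2, the smallest spread of the 32 genes (limma adjusted p = 0.479). The median of these 5 genes was -0.00, 0.07 and 0.10 log2 in ascending order of cell number.

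The wider pathway was read from 8 further lists with 64 genes, of which 54 were measured and 52 tested. In limma 0 of them passed in the tumour comparison, with a lowest adjusted p of 0.375, and 4 were lower (4.61% of all genes) and 0 higher (6.19%) at an unadjusted p under 0.05. Of the 54, 24 were below control in all 3 arrays and 6 above, where 27.3% and 33.4% of all genes past the filter were; the same shares stand behind the counts of the single lists. In the list of other synthesis genes, the 3 measured were below control in all 3 arrays, but only Lbr of these acts on sterols. Acat1, a thiolase other than the member Acat2, was -0.20 ± 0.05 log2 from control. Ggps1, which makes the longer isoprenoid for protein prenylation, was -0.16 ± 0.03 log2 from it. In the isoprenoid branch itself, 3 of 7 genes were below control in all 3 arrays and the median was -0.01, with Pggt1b, a prenyltransferase subunit, at -0.15 ± 0.07, Fnta at -0.10 ± 0.11, Nus1 at -0.07 ± 0.09 and Coq2 at 0.06 ± 0.10.

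Genes that process SREBP or degrade sterol-regulated proteins had a median of -0.10 log2, with 4 of 6 below control in all 3 arrays. Faf2 was lowest at -0.21 ± 0.05, followed by Erlin1 at -0.14 ± 0.11, Erlin2 at -0.13 ± 0.05 and the ubiquitin ligase Syvn1 at -0.08 ± 0.01. Lipoprotein receptor genes stayed near control, with a median of -0.02 log2 over 5 genes, Sort1 at -0.14 ± 0.10, Scarb1 at -0.03 ± 0.11, Vldlr at -0.02 ± 0.05 and Lrp8 at 0.02 ± 0.05. Among 7 genes of lysosomal release and sterol transfer, the median was 0.06. Lipa, the lysosomal lipase that frees cholesterol from its esters, was -0.25 ± 0.11 log2 from control, Scp2 -0.07 ± 0.03, Osbp, an oxysterol-binding transfer protein, 0.14 ± 0.07 and Gramd1a 0.13 ± 0.10.

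Extracellular lipoprotein genes spread widest. Lcat, which esterifies cholesterol on lipoproteins, differed from control by -0.55, -0.23 and -0.63 log2 in the 0.5M, 1M and 2M arrays, and Pltp, a phospholipid transfer protein, -0.31, -0.25 and -0.70. Apod, an apolipoprotein of glia, was 0.35, 0.06 and 0.91 above, and Abca2, a transporter of oligodendrocytes, 0.14, 0.26 and 0.27. The median of this list of 8 was -0.04 log2. Among 6 genes of storage and oxysterols (median 0.07), Ch25h, which makes an oxysterol that restrains SREBP, stood 0.44, 0.64 and 0.56 log2 higher than in the control, whose level of 5.59 log2 was below the filter and outside the test. Hsd3b7 was 0.19 ± 0.10 above control, Cyp27a1 0.07 ± 0.30 and Cyp39a1 0.07 ± 0.16. Fatty acid genes known as SREBP targets had a median of -0.08 log2, with 6 of 12 below control in all 3 arrays (27.3% of all genes) and 0 above (33.4%). Acss2, an acetyl-CoA synthetase, was -0.34 ± 0.16, the desaturases Scd1 and Scd2 -0.34 ± 0.12 and -0.21 ± 0.07, and Fads1 -0.20 ± 0.03. The other 6 of the 12 had values on both sides of control. Among these, Fasn was -0.01 ± 0.05 and Acly 0.02 ± 0.13, and Acaca was 0.27 above control at 2M.

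**Figure D5:**
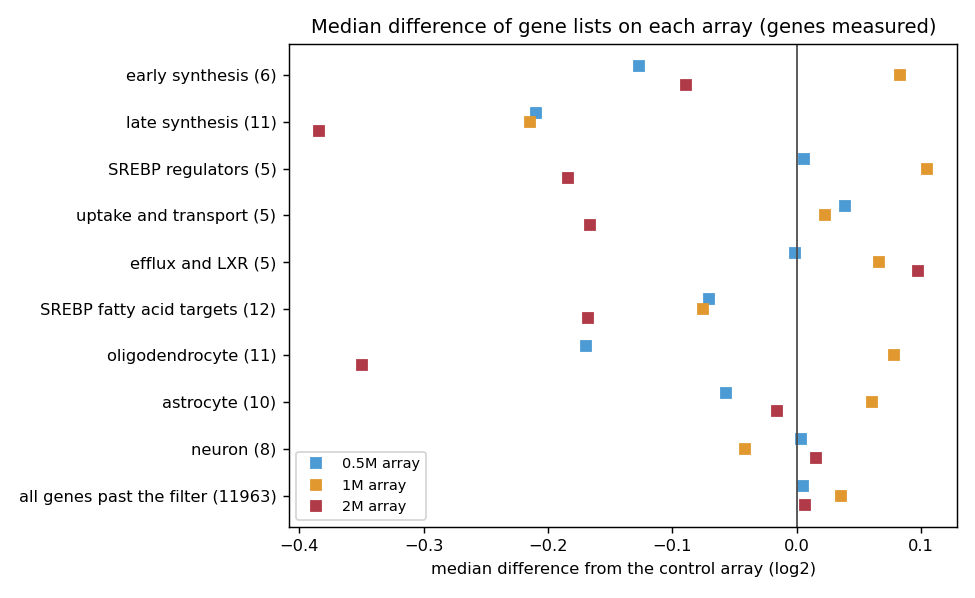
Median difference from the control array (log2) on each tumour-bearing array for the 5 roles, the fatty acid targets, 3 brain cell type marker lists and all genes past the filter, with the number of genes measured in brackets. Late synthesis lies at -0.21, -0.21 and -0.38, and oligodendrocyte markers at -0.17, 0.08 and -0.35.

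Oligodendrocyte markers were low beside the synthesis genes at 0.5M and 2M, and astrocyte markers lay near control. Of 11 oligodendrocyte markers, 4 were below control in all 3 arrays (27.3% of all genes) and 1, Mobp, above (33.4%), with array medians of -0.17, 0.08 and -0.35 log2 and mean levels of 9.93 log2 in the control and 9.74, 9.98 and 9.46 in the others. Ugt8a, a myelin lipid enzyme, was -0.69, -0.50 and -1.27 log2 from control, Opalin -0.38, 0.02 and -1.72, Mag -0.28, 0.08 and -0.54 and Mobp 0.26, 0.47 and 0.53. In the same 1M array, 7 of the 17 synthesis genes (Hmgcs1, Idi1, Fdft1, Cyp51, Msmo1, Hsd17b7 and Sc5d) were at least 0.25 log2 below control, as were 10.8% of all genes, and Mvd was 0.28 above it. Astrocyte markers had medians of -0.06, 0.06 and -0.02 log2, with 2 of 10 below and 2 above in all 3 arrays, mean levels from 10.07 to 10.21, and Aqp4 at -0.49 ± 0.16, Fgfr3 at 0.33 ± 0.09, Aldh1l1 at 0.16 ± 0.10 and S100b at -0.13 ± 0.17. Neuron markers had medians of 0.00, -0.04 and 0.02. The lowest value in these 3 lists was that of Opalin at 2M, 5.88 log2, which lay under the filter level of 6.59 and was the lowest on any array among all genes past the filter. In whole tissue, fewer cells of a type and less RNA per cell cannot be told apart, and the part of glial content in the low synthesis values was not tested.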

How the data were processed

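Hypothalamic RNA was hybridized to 1 Affymetrix whole-transcript array per group, 4 in all, from 100 ng of RNA with an integrity number above 8, per the labels' protocols. The deposited values are log2 expression, and the submitters' processing notes name RMA as the authors' method. For its version and the genome build, the entry is "not given in the sources used here". RMA aligns arrays by quantiles, so a change shared by all transcripts would not be seen. The number of arrays limits the precision, and the single tumour-bearing animal or pool behind each value means that p-values measure only the spread between these samples.

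Of 35556 probe sets, 21789 had 1 gene symbol in the platform annotation, giving 19938 genes. The 1621 with several symbols and the 12146 not listed were not used. Where a gene had more than 1 probe set (999 genes), the brightest on average was taken. Differences are tumour-bearing minus control log2 values. Fits by limma 3.58.1 in R 4.3.3 (lmFit, eBayes, Benjamini-Hochberg, threshold 0.05) used 11963 genes at or above the 40th percentile of the mean and were tested on simulated data. Alternatives were averaged probe sets, no filter, a 60th percentile filter, cyclic loess, a size of 0.5 log2 and leaving out each tumour-bearing array. Counts were made with pandas 2.3.3 and numpy 2.4.6 in Python 3.11.15, and plots with matplotlib 3.10.9. Upstream sequences came from RefSeq, assembly GRCm38.p6.

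The members and lists were chosen with earlier results of these data known. All measured members were named, and from each other list the 4 genes with the largest absolute mean difference. For some lists, genes that lay on the other side of control, or on both sides of it, were added. Those of the lists for microglia, endothelium, choroid plexus, pituitary and blood are in the closing section.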

Additional observations from a re-analysis of the deposited data

Results flagged for a closer look

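Mvd and Fdft1 lay on opposite sides of control at different cell numbers, with at least 1 array 0.25 log2 or more away. Mvd was 0.28 log2 above control at 1M and -0.10 log2 from it at 2M. Fdft1 was 0.13 log2 above control at 0.5M and -0.30 log2 from it at 1M, and its second probe set gave 0.10 and -0.32. With 1 array per group these differences between cell numbers were not tested.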

How the results depend on the processing

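The mean difference of Tmem97 was -0.19 log2 with averaged probe sets. Most alternatives leave the mean of a single member as it is or can move it by less than the SD over arrays, so they say little of its stability. The count below control in every array was 15 under all alternatives with 3 arrays and 15 to 20 when 1 tumour-bearing array was left out. The count above was 3 to 4 and then 4 to 10, the 10 without the 2M array. Counts with an array left out ask for agreement of fewer arrays, and their share of all genes was not counted. At 1M, the count at least 0.25 log2 above control was 1 with cyclic loess and 1 with the 60th percentile filter. With a size of 0.5 log2, the counts below were 1, 3 and 6, and the count above at 1M was 0. The 60th percentile filter gave medians of -0.16 log2 for early synthesis and 0.049 for efflux. Leaving out an array gave medians from 0.048 to 0.108 for efflux, -0.10 to 0.01 for early synthesis, -0.35 to -0.28 for late synthesis, -0.29 to -0.22 for all synthesis, -0.09 to 0.06 for SREBP regulators and -0.05 to 0.03 for uptake. In the limma tumour comparison, 1 gene was called without the filter, where more genes were tested, 2 with the 60th percentile filter and 3 to 6 with an array left out, none of them a member. In the trend, 0 to 58 genes and 0 to 1 members, Hmgcs1, were called with an array left out; the cause was not tested. Arrays left out leave 1 residual degree of freedom. No paired analysis was possible because each group is 1 array.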

Other observations

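Markers of other cells and neighbouring tissues were described in the same way, and 0 of their tested genes passed limma in the tumour comparison. Microglial markers had medians of 0.00, 0.05 and -0.25 log2 at 0.5M, 1M and 2M, with Cx3cr1 at -0.34 ± 0.27 log2 from control, Aif1 at -0.21 ± 0.08, Tmem119 at -0.20 ± 0.17 and C1qa at 0.19 ± 0.10. Endothelial markers had a median of 0.05 over the mean of the arrays, with Tek at -0.32 ± 0.01, Pecam1 at 0.21 ± 0.07, Cldn5 at -0.17 ± 0.05 and Cdh5 at 0.14 ± 0.08. Choroid plexus markers had a median of 0.02, with Aqp1 at 0.33 ± 0.29, Kcnj13 at -0.30 ± 0.33, Clic6 at -0.21 ± 0.16 and Folr1 at 0.10 ± 0.11. Neuron markers were led by Tubb3 at -0.19 ± 0.02 and Syt1 at 0.15 ± 0.04, with Stmn2 and Nefl at -0.09 ± 0.02 and -0.09 ± 0.04.

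Hypothalamic peptide and identity markers had a median of 0.34 log2 over the mean of the arrays, with Oxt at 0.74 ± 0.11, Avp at 0.53 ± 0.03, Otp at 0.37 ± 0.09 and Pmch at 0.36 ± 0.04. Pituitary markers had a median of 0.34, with Prl 3.85, 0.55 and 0.56 log2 higher in the 0.5M, 1M and 2M arrays than in the control, Lhb at 0.35 ± 0.03 and Tshb at 0.34 ± 0.05. Cga was below control in each array, at -0.05, -0.01 and -0.50 log2. Of the 5 blood markers 2 were measured, Alas2 at 0.85 ± 0.08 and Slc4a1 at 0.26 ± 0.12.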
